A study of Mus musculus with 16 samples.

Results

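The BCL2 family decides whether a cell keeps its mitochondrial outer membrane intact or dies by apoptosis, and 10 of its genes are described here in the brain of aged mice given the peptide adropin or diluent. The genes were taken by symbol from the gene counts: the pro-survival genes Mcl1, Bcl2, Bcl2l1 and Bcl2l2, the effectors Bax and Bak1, and the BH3-only genes Bcl2l11, Bad, Bbc3 and Bid. They are 10 of 40481 genes listed, and all 10 are among the 14949 genes that passed the filter on low counts and were compared between groups. They were chosen with the difference between adropin and saline already known, Mcl1 for being lower after adropin, so that difference is given for each of them as a description without a test.

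The mice were male C57BL animals (C57BL/6J in the study's methods) bought at 18 months of age. The adropin group (8 mice) was injected intraperitoneally once a day for about a month with synthetic adropin(34-76), the putative secreted domain of the peptide, at 90 nmol/kg/d. The saline group (8 mice) received the diluent alone, sterile saline with bovine serum albumin. Both groups were therefore old, handled and injected daily, no young or uninjected group was included in the samples analysed here, and the sequenced mice were selected from larger treatment groups that had been tested behaviorally. RNA was extracted from snap-frozen brain tissue, selected for poly-A and sequenced, and the experiment asked whether the peptide alters the brain transcriptome.

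Pro-survival members hold BAX and BAK in check, and BH3-only members occupy the groove of the pro-survival proteins or engage the effectors directly. Once released, BAX and BAK form pores in the mitochondrial outer membrane, cytochrome c leaves the mitochondria and caspases are switched on. MCL1 is a short-lived protein whose gene responds quickly to growth factors and whose loss triggers death of neural progenitors, BCL-XL (Bcl2l1) is a major survival protein of mature neurons, and BAX is the main effector of neuronal apoptosis.

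Total counts ranged from 35026503 to 70314050 per mouse, and the members had between 102 reads (Bcl2l11) and 7747 reads (Bcl2l2) in a single mouse. Over all 14949 genes no gene reached an adjusted p below 0.05 in edgeR's quasi-likelihood test (smallest adjusted p = 0.387), limma-voom called none and DESeq2 called 5. At an unadjusted p below 0.05 edgeR gave 318 lower and 278 higher genes, a split that became 441 lower and 158 higher when libraries were scaled by total count only. The median log2 fold change of all genes was -0.0019. Defining markers of neurons, astrocytes, oligodendrocytes, microglia and endothelial cells were above 0 in every mouse. Of the 4 microglia markers, 1 was called higher with adropin and 0 lower, against 1.86% and 2.13% of all genes. None of the markers of the other cell types in this list was called. The summed level of 6 choroid plexus markers lay between 12.6 and 2465 CPM in saline mice and between 11.3 and 73.6 CPM in adropin mice, and 5 of the 5 tested were called lower, as were 2 of the 2 tested cerebellar markers. The highest choroid plexus value belonged to saline mouse 8_3, without which 2 choroid plexus markers and 0 cerebellar markers were called lower, and the Mcl1 difference is given with and without it. Each mouse carries 2 numbers in its title, used here as its name, and the sources used here do not explain them. In bulk tissue, fewer cells of a type and less RNA per cell cannot be told apart.

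Stretches of the Mcl1 and Bcl2 promoters are shown because Mcl1 is the member whose groups lay farthest apart and Bcl2 is the founding pro-survival gene to which it is compared. Both windows hold the letters TGACG, the core of a cAMP response element, the site of CREB-type factors. Windows with these letters were no more frequent among the members than among all genes, and binding at them was not tested. RefSeq promoter windows (GRCm38.p6, the build of the counts being GRCm38) were found for all 10 members, in 16 windows that run from 250 bases before a start to 50 bases after it. The letters TGACG, counted on both strands, were present in 3 of the 16 windows, those of Mcl1, Bcl2 and Bbc3, and in 20.8% of 32851 promoter windows of all genes. The full palindrome TGACGTCA, which contains TGACG on each strand, was in none of the members' windows and in 1.79% of all windows, and the CArG box, the serum response factor site, was in none of them and in 1.63% of all. The capitals below mark TGACG on the strand where it was found, in Mcl1 as its reverse complement. Counted in bases from the start, the match begins at 16 in Mcl1, thus after the start, and at -107 in Bcl2. The Mcl1 stretch is chr3:95658471-95658750 on the plus strand and the Bcl2 stretch is chr1:106714291-106714540 on the minus strand, each written 5′ to 3′ in the direction of transcription.
Mcl1: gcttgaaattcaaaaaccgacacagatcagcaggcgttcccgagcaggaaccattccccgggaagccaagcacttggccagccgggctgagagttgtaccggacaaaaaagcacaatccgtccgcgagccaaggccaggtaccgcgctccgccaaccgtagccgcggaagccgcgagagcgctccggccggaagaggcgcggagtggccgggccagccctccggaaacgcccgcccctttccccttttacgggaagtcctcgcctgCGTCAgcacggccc
Bcl2: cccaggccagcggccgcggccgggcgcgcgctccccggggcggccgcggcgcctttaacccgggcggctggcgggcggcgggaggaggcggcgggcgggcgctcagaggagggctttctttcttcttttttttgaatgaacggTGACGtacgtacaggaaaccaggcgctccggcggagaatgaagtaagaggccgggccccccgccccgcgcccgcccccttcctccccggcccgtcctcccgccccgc

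Levels were first compared within the family as RPKM, the TMM-normalized CPM (counts scaled to a common library size) divided by kilobases of merged exon. Bcl2l2, which encodes BCL-W, and Bcl2l1 had the highest levels at 25.5 ± 1.16 RPKM and 24.5 ± 1.16 RPKM (mean ± SD, n = 16 mice). Of the merged exon bases, 13.3% of Bcl2l2 and 6.09% of Bcl2 are shared with a gene that is listed in the counts, where reads may be left uncounted as ambiguous, and 12.2% of Bax with a gene that is not listed there. Bax followed at 21.9 ± 3.13 RPKM and Mcl1 at 16.2 ± 1.31 RPKM. The first 3 genes were close to each other, since Bcl2l2 exceeded Bcl2l1 in 14 of 16 mice and Bcl2l1 exceeded Bax in 13 of 16, whereas Bax exceeded Mcl1 in 16 of 16.

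Bad had 10.9 ± 1.85 RPKM, Bak1 5.05 ± 0.51 RPKM and Bbc3 4.16 ± 0.70 RPKM. Bcl2 itself was low in this tissue at 2.40 ± 0.30 RPKM, next to Bid at 2.13 ± 0.29 RPKM, and the order of this pair held in 11 of 16 mice. Bcl2l11 was the lowest member in 16 of 16 mice at 0.59 ± 0.09 RPKM. With the length of the longest transcript in place of merged exons, Bcl2l1 ranked 1, Bax 2, Bcl2l2 3, Bad 4, Mcl1 5, Bid 8 and Bcl2 9, so the order among the top 5 and between Bcl2 and Bid depends on the transcript length used.

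Summed over the family, the pro-survival genes made up 61.1 ± 2.83% of the RPKM in adropin mice and 60.3 ± 2.90% in saline mice (mean ± SD, n = 8 each). Effectors made up 23.3 ± 1.97% and 24.1 ± 1.90%, and BH3-only genes 15.6 ± 1.44% and 15.6 ± 1.16%. These shares differed between groups by less than 1 SD. The summed levels behind them were lower with adropin for each role. They were 67.5 ± 1.5 against 69.8 ± 1.8 RPKM for pro-survival genes and 25.9 ± 2.9 against 28.1 ± 3.8 RPKM for effectors. For BH3-only genes they were 17.3 ± 2.2 against 18.2 ± 2.5 RPKM. The pro-survival sum holds Mcl1, which was chosen for being lower, and the sums were not tested.

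**Figure D1:**
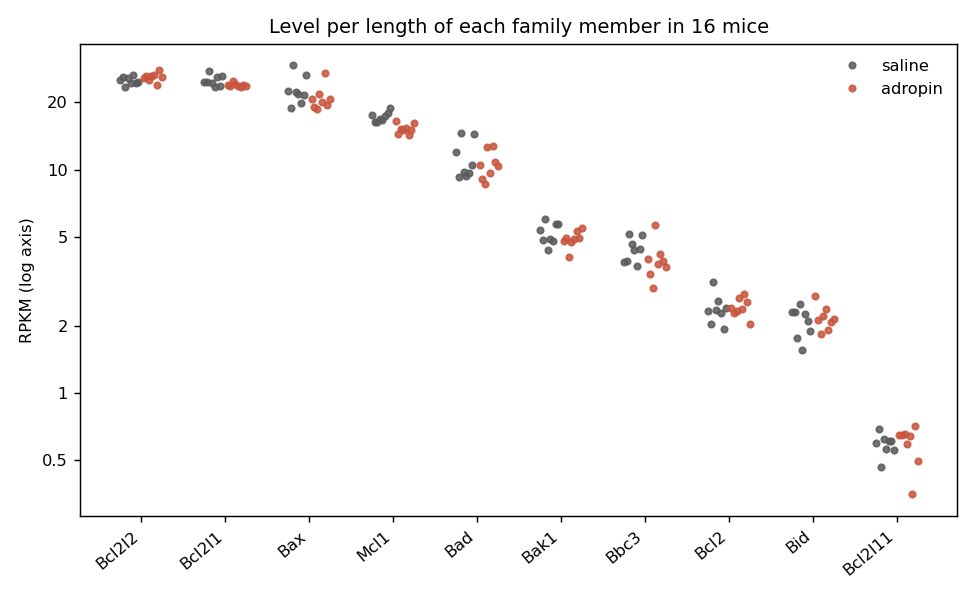
Level per length (RPKM, log axis) of each family member in each of the 16 mice, saline in grey and adropin in red, ordered by the mean over all mice. Bcl2l2, Bcl2l1, Bax and Mcl1 form the top with means from 25.5 to 16.2 RPKM, and Bcl2l11 lies apart at the bottom at 0.59 RPKM.

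Mcl1 (ENSMUSG00000038612, chr3:95658788-95663176, plus strand, no exon shared with another gene) was lower in the adropin group. In TMM-normalized CPM, the adropin mice measured 48.7 (4_3), 49.4 (2_1), 51.2 (3_3), 51.3 (5_5), 51.8 (2_4), 52.3 (4_1), 55.0 (7_4) and 56.6 CPM (1_3). The saline mice measured 55.6 (5_3), 56.1 (5_4), 56.8 (6_2), 57.7 (6_1), 59.5 (7_1), 60.4 (2_3), 61.0 (8_1) and 64.3 CPM (8_3). All but 1 of the adropin mice lay below every saline mouse, and the groups overlapped only through adropin mouse 1_3, the deepest library, which lay above saline mice 5_3 and 5_4.

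The Mcl1 means were 52.0 ± 2.65 CPM with adropin and 58.9 ± 2.95 CPM with saline (mean ± SD, n = 8 each), a difference of -11.7% (log2 fold change -0.18, SE 0.046, SE being the standard error of the fit). Mcl1 was 1 of 10 members with an unadjusted p below 0.05, in the lower direction, where 2.13% of all genes tested were called lower, and since Mcl1 was chosen on this contrast nothing is read from that count. No member was called higher, against 1.86% of all genes. At least 7 of 8 adropin mice lay below every saline mouse for 11 genes of 14949 (0.0736%), Mcl1 among them, and above every saline mouse for 7 genes (0.0468%), none of them a member. The place of Mcl1 among the 11 follows from the same choice, so nothing is read from it either.

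The Mcl1 difference was -0.16 on the log2 scale without saline mouse 8_3 and ranged from -0.19 to -0.16 as each mouse was left out in turn. It was -0.19 with Gm42418, a noncoding transcript that took 0.84% to 4.98% of the counts of a mouse, as a covariate. The spread of Mcl1 between mice was small, with a biological coefficient of variation of 0.075 that placed it at the 1.91 percentile of all genes, where the median was 0.136. A small spread makes a difference between groups easier to see, and Mcl1 was chosen on that difference, so nothing is read from this rank.

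**Figure D2:**
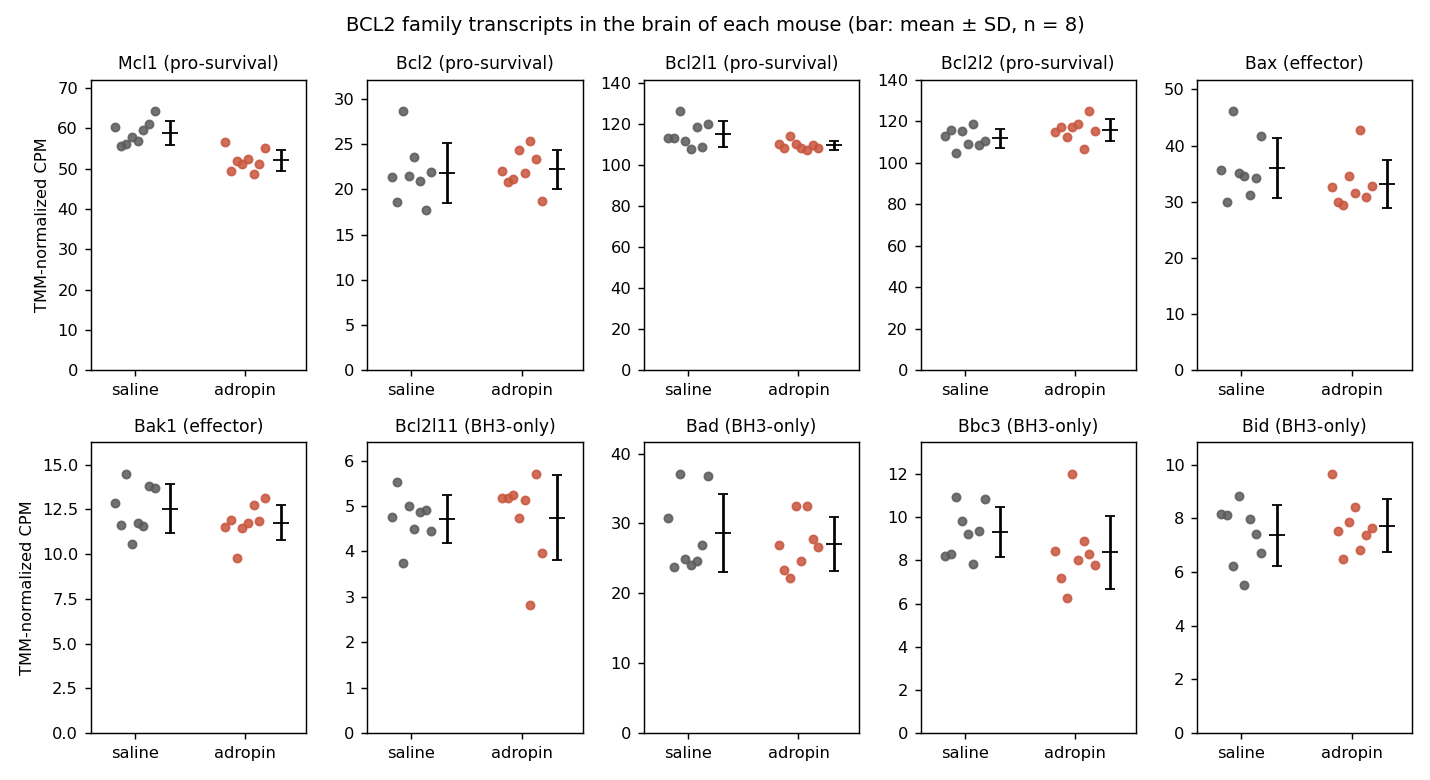
TMM-normalized CPM of each family member in each mouse, with the mean ± SD of 8 mice beside each group and every axis starting at 0. For Mcl1 the adropin mice lie between 48.7 and 56.6 CPM and the saline mice between 55.6 and 64.3 CPM, and for every other member the groups overlap widely.

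The other pro-survival genes overlapped between groups. Bcl2 (ENSMUSG00000057329, chr1:106538178-106714274, minus strand) ranged from 18.7 to 25.3 CPM around a median of 21.9 with adropin, and from 17.7 to 28.7 CPM around 21.4 with saline. Most mice of both groups were intermixed, and saline mouse 5_4 was highest. The log2 fold change of 0.03 was smaller than its standard error of 0.087 and turned to -0.01 without saline mouse 8_1.

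Bcl2l1 (ENSMUSG00000007659, chr2:152780668-152831728, minus strand) ranged from 107.6 to 114.0 CPM around a median of 109.1 with adropin, and from 108.1 to 126.5 CPM around 113.4 with saline. The low ends of the groups coincided, while saline mice 7_1, 8_3 and 5_4 lay above every adropin mouse. Its means were 109.6 ± 2.06 and 115.1 ± 6.22 CPM, a log2 fold change of -0.07 (SE 0.042), and its spread over all mice was among the smallest of the genes tested (0.896 percentile).

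Bcl2l2 (ENSMUSG00000089682, chr14:54883377-54888234, plus strand) ranged from 106.6 to 125.0 CPM around a median of 116.4 with adropin, and from 104.6 to 118.6 CPM around 111.8 with saline. Here the adropin mice were shifted upward within a shared range, and only adropin mouse 5_5 exceeded all saline mice. The means were 116.0 ± 5.25 and 111.9 ± 4.57 CPM, a log2 fold change of 0.05 (SE 0.043), and the value was 0.03 with library size as the only scaling.

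Mcl1 was then set against the other pro-survival genes within each mouse, which removes most of the effect of library scaling. The log2 level of Mcl1 minus the mean of Bcl2, Bcl2l1 and Bcl2l2 had a lowest, median and highest value of -0.44, -0.35 and -0.16 in adropin mice, and of -0.37, -0.16 and 0.04 in saline mice. In 4 adropin mice (4_3, 5_5, 3_3 and 2_1) the balance was below that of every saline mouse, and 4 saline mice (8_1, 8_3, 2_3 and 7_1) were above every adropin mouse, with the others intermixed and saline mouse 5_4, the highest in Bcl2, lowest of its group. The means were -0.33 ± 0.10 and -0.15 ± 0.12, a difference of -0.19 (SE 0.055).

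Gene by gene, the difference between groups was -0.23 (SE 0.045) for Mcl1 minus Bcl2l2, -0.21 (SE 0.11) for Mcl1 minus Bcl2 and -0.11 (SE 0.044) for Mcl1 minus Bcl2l1. Against Bcl2l2, 7 of 8 adropin mice lay below every saline mouse. Against Bcl2l1, whose mean was also below that of saline mice, none did, while 5 saline mice lay above every adropin mouse. Because Mcl1 was chosen for being low after adropin, these differences carry its own difference and were not tested.

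**Figure D3:**
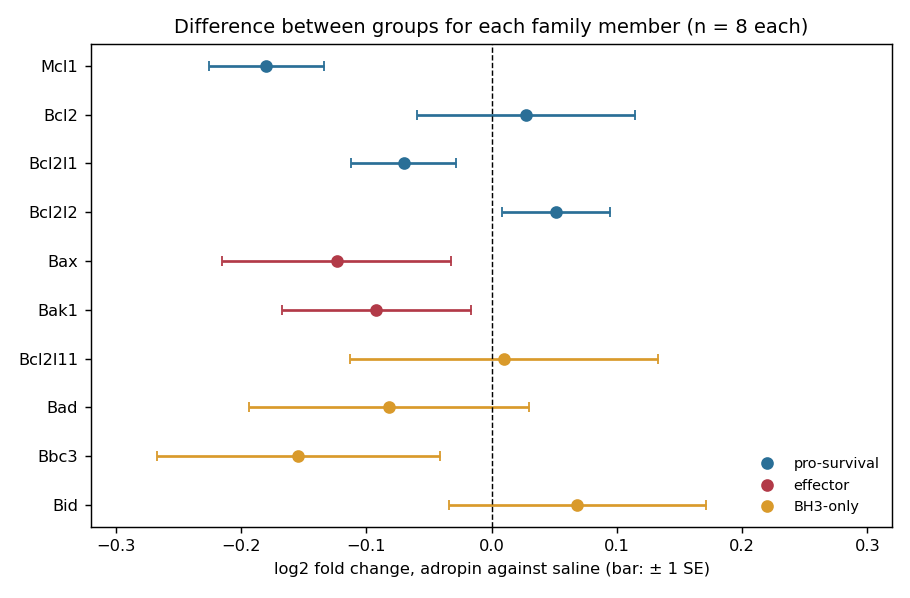
The log2 fold change of each member, adropin against saline, with bars of 1 standard error and colors for the role in the family. Mcl1 lies at -0.18, farthest from 0 relative to its bar, Bcl2 and Bcl2l2 lie above 0 among the pro-survival genes, and both effectors lie below 0.

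Both effectors had slightly lower means with adropin. Bax (ENSMUSG00000003873, chr7:45461697-45466898, minus strand) ranged from 29.5 to 42.8 CPM around a median of 32.1 with adropin, and from 29.9 to 46.2 CPM around 34.8 with saline. The highest were adropin mouse 4_3 at 42.8 CPM and saline mice 8_3 at 41.7 and 5_4 at 46.2 CPM, and the remaining mice overlapped. The means were 33.1 ± 4.27 and 36.0 ± 5.37 CPM, a log2 fold change of -0.12 (SE 0.091), which was -0.07 without saline mouse 5_4, -0.18 without adropin mouse 4_3 and -0.05 with the Gm42418 share as a covariate.

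Bak1 (ENSMUSG00000057789, chr17:27019810-27029009, minus strand) ranged from 9.80 to 13.1 CPM around a median of 11.8 with adropin, and from 10.5 to 14.5 CPM around 12.3 with saline. Most values of both groups lay within the same interval, and 3 saline mice (8_3, 8_1 and 5_4) were above every adropin mouse. The log2 fold change was -0.09 (SE 0.075), and it was -0.05 without adropin mouse 2_4 and -0.06 without saline mouse 5_4. Of the merged exon bases of Bak1, 18.2% are shared with the Ggnbp1 gene listed in the counts, on the opposite strand, and since the strand setting of the counting is not given, reads there could not be assigned with certainty.

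The ratio of Bax to Bcl2, often read as a balance of death and survival signals, was followed within each mouse. The log2 level of Bax minus Bcl2 had a lowest, median and highest value of 0.40, 0.53 and 0.81 in adropin mice and of 0.55, 0.70 and 0.94 in saline mice. Of the adropin mice, 5 lay below every saline mouse and the others were spread through the saline range. The difference of the means was -0.15 (SE 0.071) and ranged from -0.19 to -0.12 as each mouse was left out.

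Among the BH3-only genes, Bbc3 (ENSMUSG00000002083, chr7:16308393-16318205, plus strand), the p53 target that encodes PUMA, had the log2 fold change farthest from 0. It ranged from 6.26 to 12.0 CPM around a median of 8.17 with adropin, and from 7.84 to 10.9 CPM around 9.31 with saline. Adropin mice 2_4, 2_1 and 7_4 were below every saline mouse, but adropin mouse 3_3 was the highest of all 16. Its log2 fold change of -0.15 had a standard error of 0.11 and was -0.24 without adropin mouse 3_3 and -0.10 without adropin mouse 2_4.

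Bad (ENSMUSG00000024959, chr19:6941861-6951899, plus strand), whose protein is held inactive by growth factor dependent phosphorylation, ranged from 22.2 to 32.5 CPM around a median of 26.7 with adropin, and from 23.8 to 37.1 CPM around 25.9 with saline. Saline mice 8_3 and 5_4 lay above every adropin mouse, while the medians of the groups were close. The log2 fold change of -0.08 had a standard error of 0.11, and it ranged from -0.12 to -0.02 as each mouse was left out, was -0.02 without either of these mice and was -0.0027 with the Gm42418 share as a covariate. Of its exon bases, 20.5% are shared with Gpr137 on the opposite strand, whose level was 117 CPM in both groups.

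Bcl2l11 (ENSMUSG00000027381, chr2:128126038-128162547, plus strand) encodes BIM, which binds all pro-survival members. It ranged from 2.81 to 5.72 CPM around a median of 5.15 with adropin, and from 3.73 to 5.53 CPM around 4.82 with saline. The groups overlapped, with adropin mouse 4_3 below and adropin mouse 5_5 above every saline mouse, and the log2 fold change of 0.01 (SE 0.12) was 0.10 without adropin mouse 4_3 and -0.03 without adropin mouse 5_5. Library size scaling turned it to -0.02.

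Bid (ENSMUSG00000004446, chr6:120891930-120916853, minus strand), which links death receptors to the mitochondria after caspase cleavage, ranged from 6.48 to 9.66 CPM around a median of 7.58 with adropin, and from 5.49 to 8.84 CPM around 7.69 with saline. Adropin mouse 1_3 was highest and saline mouse 6_2 lowest, with the others intermixed. The log2 fold change of 0.07 was below its standard error of 0.10 and was 0.01 without saline mouse 6_2. Bid shares 17.7% of its exon bases with Bcl2l13 on the opposite strand.

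In all, 6 members had a log2 fold change below 0 and 4 above 0, and no member had groups that did not overlap, against 0.00669% of all genes with every adropin mouse below every saline mouse. Bcl2, Bcl2l11 and Bid, whose values lay within 1 SE of 0, took the other sign under some alternatives, Bcl2l11 already under library size scaling.

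The genes around the family were described by lists of related genes, assembled by function. Of 15 other BCL2 family genes, 8 were expressed enough to be tested, and 1 was called lower and none higher at an unadjusted p below 0.05, against 2.13% and 1.86% of all genes. This was Bcl2l12, an atypical family gene, at 0.86 ± 0.25 CPM with adropin and 1.24 ± 0.15 CPM with saline (log2 fold change -0.54, SE 0.17, unadjusted p = 0.00586, adjusted p = 0.874 in edgeR). The values spread from 0.40 to 1.23 CPM with adropin and from 1.02 to 1.42 CPM with saline, so the groups overlapped at a level near the filter. The best expressed genes of this list, the mitophagy receptors Bnip3 and Bnip3l, had log2 fold changes of -0.02 (SE 0.064) and -0.00053 (SE 0.055). The list had a median log2 fold change of -0.02, and 7 genes, among them Bcl2l10, Bik and the Bcl2a1 copies, were too low to be tested.

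Downstream of the family, 21 of 22 caspases and their regulators were tested, and none was called in either direction, against 3.99% of all genes. In a list of this size the count of 0 says little. Without adropin mouse 4_3, 1 was called higher, against 6.16% of all genes in that fit. Their log2 fold changes lay between -0.08 and 0.16 with a median of -0.0046. Cycs, which encodes cytochrome c, had 67.9 ± 7.23 and 70.8 ± 11.7 CPM in adropin and saline mice (log2 fold change -0.06, SE 0.091). Vdac2, a mitochondrial channel that binds BAK, had 158 ± 8.94 and 164 ± 14.3 CPM (log2 fold change -0.05, SE 0.057).

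All 14 regulators of MCL1 turnover and transcription were tested and none was called in either direction, against 3.99% of all genes, so the count of 0 says little. The list's median log2 fold change was 0.07, and 3 of its 14 genes were below 0. Fbxw7, the substrate receptor of a ubiquitin ligase that marks MCL1 for degradation, had 255 ± 16.2 CPM with adropin and 243 ± 24.4 CPM with saline (log2 fold change 0.07, SE 0.062). Gsk3a, a kinase of the pathway that primes MCL1 for this ligase, had a log2 fold change of 0.02 (SE 0.044).

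Of 12 genes for transcription factors that act on death genes and for their close partners, 11 were tested, with 2 called lower and 1 higher, against 2.13% and 1.86% of all genes. Cdkn1a, the p53 target that encodes the cell cycle inhibitor p21, had 14.5 ± 1.26 CPM with adropin and 17.6 ± 3.06 CPM with saline (log2 fold change -0.27, SE 0.095, unadjusted p = 0.00992 in edgeR). Foxo4, a forkhead factor, had 21.5 ± 2.13 and 24.0 ± 1.46 CPM (log2 fold change -0.16, SE 0.063, unadjusted p = 0.0210 in edgeR). E2f1 was the gene called higher, at 21.7 ± 2.04 and 19.0 ± 2.16 CPM (log2 fold change 0.19, SE 0.077, unadjusted p = 0.0232 in edgeR).

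For Cdkn1a, Foxo4 and E2f1 the groups overlapped and the adjusted p was 0.874 in edgeR. Foxo4 was no longer called without adropin mouse 4_3 (log2 fold change -0.12, unadjusted p = 0.0540 in edgeR), nor E2f1 without adropin mouse 7_4 (log2 fold change 0.16, unadjusted p = 0.0552 in edgeR). The best expressed genes of the list, Atf4 and Jun, had log2 fold changes of -0.09 (SE 0.073) and -0.17 (SE 0.12). The list's median was -0.09, beside -0.0019 over all genes tested.

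**Figure D4:**
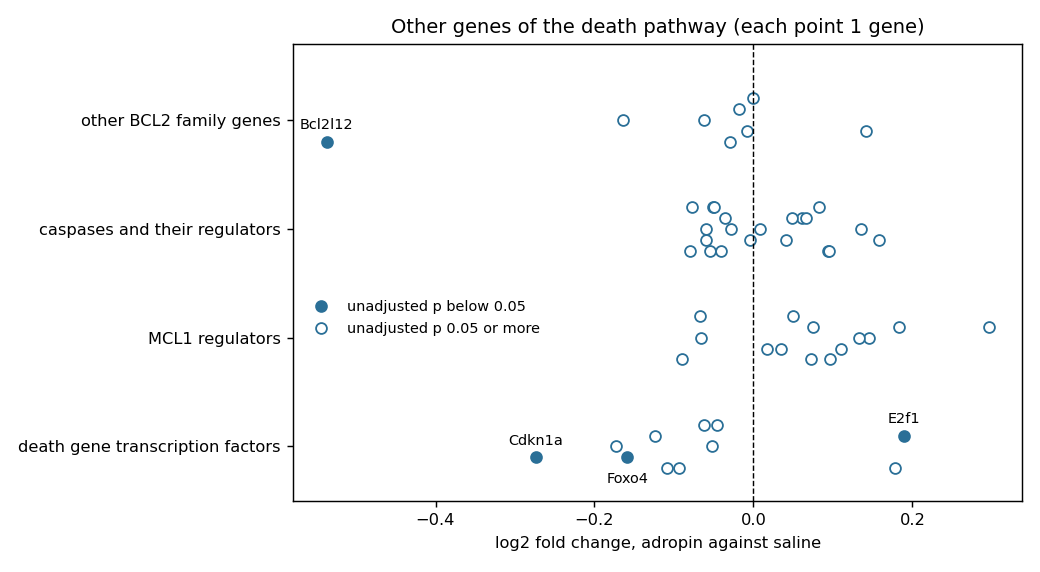
The log2 fold change, adropin against saline, of each tested gene in the lists of other BCL2 family genes, caspases and their regulators, MCL1 regulators and death gene transcription factors, with filled points for an unadjusted p below 0.05 in edgeR. Bcl2l12 at -0.54, Cdkn1a at -0.27, Foxo4 at -0.16 and E2f1 at 0.19 are the filled points, and the caspase list stays between -0.08 and 0.16.

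Correlations between genes over mice of the same group had not been used to choose the genes, so they were used to ask which transcripts move with Mcl1. After group means were subtracted, Pearson's r of Mcl1 with the other 9 members over 16 mice ran from -0.37 for Bcl2 to 0.34 for Bid. None of the 9 relations passed the two-sided permutation test within groups (adjusted p = 0.948 for each). Spearman's rho ran from -0.30 for Bcl2 to 0.32 for Bcl2l1, with adjusted permutation p-values from 0.870 to 0.971. Without the 2 mice with the most extreme Mcl1 deviation (adropin 1_3 and saline 8_3) r with Bcl2 was -0.54.

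Mcl1 was also compared with immediate early genes, the activity-dependent genes such as Fos and Egr2. Of 12 such genes 10 were called lower with adropin, against 2.13% of all genes, and none higher, with a median log2 fold change of -0.62, a list chosen with this difference known. Within groups, Mcl1 had r = 0.38 with their mean score (permutation p = 0.164, adjusted p = 0.301 over 11 relations) and rho = 0.41 (permutation p = 0.124, adjusted p = 0.418), and r = 0.32 without the 2 extreme mice. The relation did not pass the test.

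The strongest relation of Mcl1 with a cell type score was with the 5 neuronal markers, at r = 0.62 (permutation p = 0.0117, adjusted p = 0.105) and rho = 0.64 (permutation p = 0.00891, adjusted p = 0.0980). It was followed by the 3 endothelial markers at r = 0.60 (permutation p = 0.0192, adjusted p = 0.105) and rho = 0.55 (permutation p = 0.0354, adjusted p = 0.195). Neither passed after adjustment over 11 relations, and without the extreme mice r was 0.50 and 0.48. The cerebellar score, whose markers were called lower with adropin, had r = 0.49 with Mcl1 (permutation p = 0.0582, adjusted p = 0.213) and rho = 0.30 (permutation p = 0.266, adjusted p = 0.418), and r was -0.10 without the extreme mice. For the choroid plexus score, whose markers were also called lower, r was 0.15 (permutation p = 0.600, adjusted p = 0.680), rho was -0.18 (permutation p = 0.499, adjusted p = 0.617) and r was -0.55 without the extreme mice. The relation of Mcl1 with total count (r = 0.41, permutation p = 0.136, adjusted p = 0.301, rho = 0.31, permutation p = 0.253, adjusted p = 0.418) rested on these mice, since r was -0.04 without them.

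None of the neuronal or endothelial markers was called in either direction between groups. The summed neuronal markers measured from 6622 to 7944 CPM with adropin and from 6489 to 7096 CPM with saline. Their part in the lower Mcl1 level of the adropin group was not tested.

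Among themselves, the members formed opposing sets that mixed pro-survival and pro-death genes. Over the 45 pairs, r within groups ran from -0.83 (Bax with Bcl2l11) to 0.87 (Bax with Bad), with a median of 0.11 and 25 pairs above 0. Bax also ran with Bcl2 (r = 0.70) and Bbc3 (r = 0.65), Bad with Bbc3 (r = 0.74) and Bak1 (r = 0.70), and Bcl2l2 with Bcl2l11 (r = 0.76) but against Bax (r = -0.71). These correlations over 16 mice share libraries and size factors and are given as a description. The opposed pair of Bax and Bcl2l11 leaned on 2 mice. Adropin mouse 4_3 deviated from its group mean by 0.38 in Bax and -0.71 in Bcl2l11 (log2). Saline mouse 5_4 deviated by 0.37 and -0.33. Values of r between these members without the 2 mice are not given.

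The same order appeared along the main axis on which mice of a group differed, the first principal component of all 14949 genes after group means were subtracted, which held 33.9% of the variance. Bax followed it most closely of the members (r = 0.96), then Bad (r = 0.88), Bbc3 (r = 0.75), Bcl2 (r = 0.75) and Bak1 (r = 0.60). Bcl2l11 (r = -0.77), Bcl2l2 (r = -0.63) and Bid (r = -0.40) ran the other way, and Bcl2l1 (r = 0.38) and Mcl1 (r = -0.18) were least tied to it. The median absolute r of all genes was 0.54, so a close relation with this axis was common.

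Saline mouse 5_4 and adropin mouse 4_3 lay farthest toward the Bax end, followed by adropin mouse 3_3 and saline mouse 8_3. The r of the members with the axis is not given without mice 5_4 and 4_3. The axis had r = -0.62 with the share of Gm42418, r = -0.67 with the astrocyte score, r = 0.60 with the choroid plexus score (r = 0.68 without saline mouse 8_3) and r = -0.33 with the total count. The part of these properties in the levels of Bax and Bcl2l11 was not tested.

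**Figure D5:**
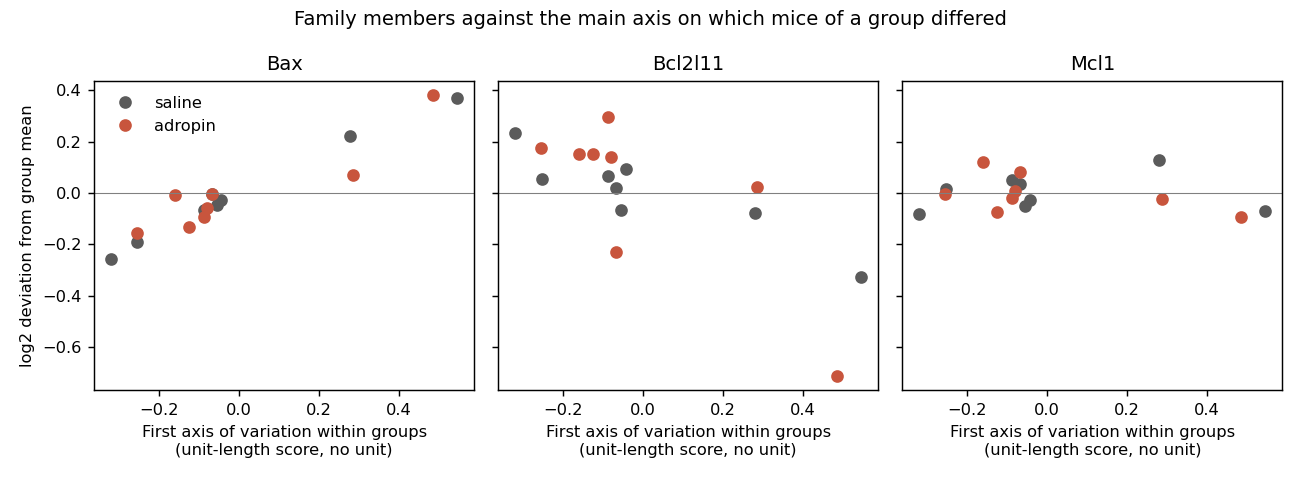
Deviation of Bax, Bcl2l11 and Mcl1 from the group mean (log2, vertical axes) against the first axis of variation within groups (score without unit, horizontal axes), 1 point per mouse, saline in grey and adropin in red. Bax runs with the axis (r = 0.96), Bcl2l11 against it (r = -0.77) and Mcl1 shows little relation to it (r = -0.18).

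The transcripts most like Mcl1 over the 16 mice, by r within groups among all genes tested, were Cdkn1b (r = 0.91), which encodes the cell cycle inhibitor p27, Snx5 (r = 0.86), Topors (r = 0.84), Tuba8 (r = 0.84), the copper transporter gene Slc31a1 (r = 0.84), Cthrc1 (r = 0.83), the heparanase gene Hpse (r = 0.83) and Srxn1 (r = 0.83). The most opposed were Tas1r3 (r = -0.84), Ptpru (r = -0.83), Myo18b (r = -0.82) and Palm (r = -0.82). Cdkn1b, the closest, had 44.8 CPM with adropin and 47.4 CPM with saline (log2 fold change -0.08, SE 0.081), a smaller difference than that of Mcl1.

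Different genes were closest to the other pro-survival members. Bcl2 was most like Msl1 (r = 0.93), Txnrd2 (r = 0.92) and Vti1b (r = 0.91). Bcl2l1 was most like Orc6 (r = 0.82), Mto1 (r = 0.82) and Cmpk1 (r = 0.79). For Bcl2l2 the closest were Jrk (r = 0.86), Scamp5 (r = 0.86) and the neuronal adaptor gene Shc3 (r = 0.86). These are the highest of 14949 values each, chosen for their size, and carry no test.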

How the data were processed

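RNA from the brains of 16 mice was sequenced, 8 given adropin and 8 given saline. Alignment used STAR and the primary assembly of Ensembl release 76 (GRCm38). The deposited counts are whole reads per gene that featureCounts could place uniquely and without ambiguity. The strand setting is not given in the sources used here. The authors also deposited CPM values, which are proportional to the counts within each library, and the counts were used here. Of 40757 rows, 276 repeated entries were dropped.

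TMM factors were computed in edgeR 4.0.16 (R 4.3.3). The filter followed the study's methods: more than 1 CPM in 7 or more mice, without 355 ribosomal RNA genes. edgeR's quasi-likelihood test was fitted over 14949 genes with Benjamini-Hochberg adjustment. The call was an unadjusted p below 0.05, the study's cut-off without its fold change limit. Alternatives were limma-voom (limma 3.58.1), DESeq2 1.42.0, library size only, DESeq2 size factors, no filter, the title numbers as blocks, a Gm42418 covariate and each mouse left out. On simulated counts for the comparison of adropin with saline (14949 genes, 200 changed 2 fold), 194 of the changed genes were recovered by edgeR, along with 15 false calls after adjustment. Relations within groups used log2 CPM (prior count 2) and 100000 permutations. The axis of variation was added after the pairs of members had been seen.

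The members and gene lists were chosen with earlier results of these data known. Besides members, the text names every called gene and the 2 genes of highest RPKM in the lists of other BCL2 family genes, caspases, MCL1 regulators and death gene transcription factors, and the genes most like the pro-survival members. Exon lengths came from GENCODE on GRCm38 and promoters from RefSeq. A planned comparison of protein sequences was not carried out, since no protein table was used here. Which mice shared a cage or a preparation batch is not given in the sources used here, and no 2 mice of a group agreed within counting noise (for 56 pairs, chi-square divided by its degrees of freedom was 8.52 to 190). Among the members Bcl2l11 had the fewest reads, 102 to 349 per mouse.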

Additional observations from a re-analysis of the deposited data

Results flagged for a closer look

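Among the 20 groups of 8 values formed by the 10 members, 3 held a mouse separated from its group by more than Dixon's critical gap at the 95% level, where chance gives about 1 in 20 groups, and the groups of different members share mice. Bax was 42.8 CPM in adropin mouse 4_3, with the next mouse at 34.5 CPM (gap 0.623 of the range). Bcl2l1 was 114.0 CPM in adropin mouse 2_4, with the next at 110.4 CPM (gap 0.555 of the range). Bbc3 was 12.0 CPM in adropin mouse 3_3, with the next at 8.91 CPM (gap 0.540 of the range).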

How the results depend on the processing

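The direction of the Mcl1 difference was kept in the 24 alternatives run, with log2 fold changes from -0.20 (library size only) to -0.16. The number of genes called lower was 1061 with no filter and 195 with the first title number as a replicate block, and 192 to 524 with 1 mouse left out (192 without adropin 2_4, 207 without adropin 4_1 and 524 without adropin 4_3). The number called higher was 158 with library size only, 841 with no filter, 132 and 146 with the first and second number as a replicate block, 146 with the Gm42418 covariate, and 162 to 921 with 1 mouse left out (162 without adropin 1_3, 488 without adropin 3_3, 921 without adropin 4_3, 632 without saline 5_3 and 477 without saline 7_1). The numbers with no filter are out of 30210 genes tested and the others out of 14949, so they do not share a total. The cause of the changes in these numbers was not tested.

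Mice that shared a first number across groups did not regularly deviate together (r from -0.27 to 0.22 over 5 pairs, 2 above 0.1), nor did those sharing a second number (r from -0.56 to 0.30 over 17 pairs, 7 above 0.1), so the numbers were not taken as pairs. With the first number as a block, Mcl1 was -0.17, Bcl2 -0.06, Bid -0.08, Bax -0.19 and Bad -0.18, so 8 members lay below 0, and Bcl2l12, Cdkn1a, Foxo4 and E2f1 were not called (0 lower, 0 higher in their lists). With the second number Bad was -0.15 and Bcl2l11 -0.01, and with the Gm42418 covariate Bcl2l11 was -0.08. With no filter 2 other BCL2 family genes were lower and 1 higher, and the second number as a block left 0 transcription factors higher. The MCL1 regulators had 0 to 2 genes called higher with 1 mouse left out and 1 with the Gm42418 covariate.

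The weak relations of Mcl1 changed sign with Bcl2l1 (-0.14 with library size only), with Bcl2l2 (-0.027 with DESeq2 size factors, rho -0.012), with Bax (0.059 with library size only, 0.053 with DESeq2 size factors, rho 0.088), with Bcl2l11 (rho -0.05) and with Bbc3 (rho -0.047). With 1 mouse left out, r ranged from -0.089 to 0.39 for Bcl2l1, -0.12 to 0.19 for Bcl2l2, -0.25 to 0.24 for Bax, -0.19 to 0.30 for Bcl2l11, -0.10 to 0.35 for Bad, -0.15 to 0.11 for Bbc3 and -0.54 to -0.26 for Bcl2.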

Other observations

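The immediate early genes differed in how closely they ran with Mcl1 between mice of a group. Of the 12, Dusp1 (r = 0.62) and Arc (r = 0.56) were closest, Fosb (r = 0.06) and Egr4 (r = 0.08) were near 0 and Npas4 (r = -0.16) was the only one below 0. These genes were named after their values were seen, the points share libraries and size factors, and no test is given.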
